A study of Mus musculus with 4 samples.

Results

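Serpins are a superfamily of proteins, most of which inhibit serine proteases by trapping them in a covalent complex. They were taken here as the 40 genes, of 18193 named on the array, whose single symbol in the platform annotation begins with Serpin. Each gene was represented by the brightest of its probe sets, by mean log2 over the 4 arrays, out of 56 for all serpins. Another 3 probe sets were shared by paralogs and are given apart. The RefSeq table for assembly GRCm38.p6 lists 69 Serpin genes, and the 29 with no probe set of their own are not analysed here. Of the 40 members, 25 entered the comparisons because at least 1 array reached that array's median signal.

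Liver RNA came from male mice in 4 groups with 1 Affymetrix 3' array each. The groups were wild type on a chow diet with 10% of calories from fat, LASS2-/- on the same chow, wild type on a high-fat diet with 60% of calories from fat, and LASS2-/- on that high-fat diet. Mice were 3 weeks old when either diet began. No label names the strain, the age at sampling, the design of the LASS2 allele or the number of mice behind each array. With no replicates, no value has an error between animals, and a difference between 2 arrays has no test.

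Serpins are grouped in clades by sequence. Clade A holds secreted proteins made largely by hepatocytes, among them the antitrypsins, the antichymotrypsin-like Serpina3 genes and hormone carriers that no longer inhibit proteases. Clade B serpins stay inside cells, where they guard against granule and lysosomal proteases. The remaining clades include antithrombin, heparin cofactor, antiplasmin, the C1 inhibitor, and Serpinh1, a collagen chaperone of the endoplasmic reticulum. Mouse liver is a main source of the plasma serpins, and rodents carry many tandem copies of the Serpina1 and Serpina3 genes.

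Cers2 is the current symbol of the targeted LASS2 gene. On chow it read 12.46 log2 in wild type and 12.32 with the LASS2-/- label, and on high-fat diet 12.25 and 12.32. The label did not go with a lower Cers2 signal in both diets, so LASS2-/- is used below as the label of an array. Whether the probe set lies in the deleted sequence is unknown here. All 9 measured hepatocyte markers of 10 listed were above the floor on every array. Array medians, used as the floor for ratios, lay between 6.17 and 6.28 log2. Mean effects were tested with limma by an additive model of genotype and diet, and the value after ± is its moderated standard error. That error is borrowed mostly from other genes of like signal (12.7 prior and 1 residual degrees of freedom).

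**Figure D1:**
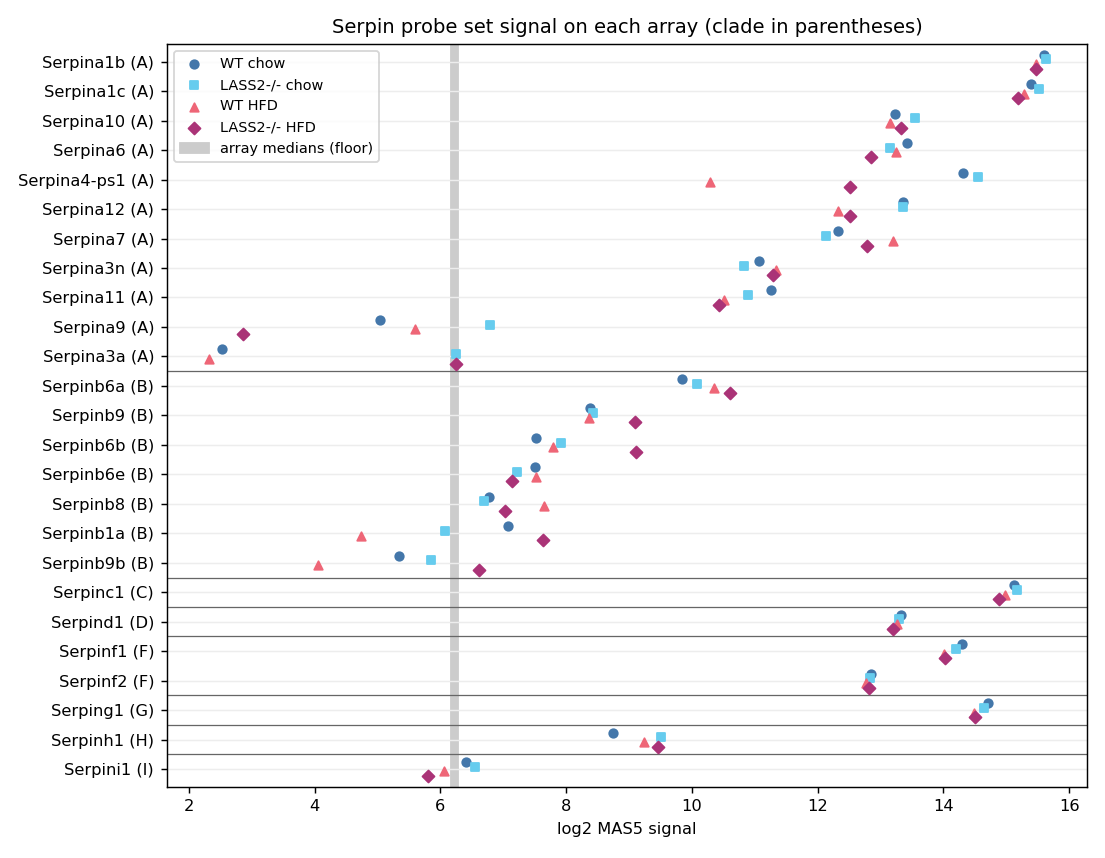
The log2 MAS5 signal (horizontal axis) of the 25 serpin genes that entered, in rows by clade, has 1 point for each of the 4 arrays, and the grey band spans the array medians. Most secreted serpins have closely spaced points, while Serpina4-ps1 spreads from 10.29 to 14.55, and levels of different probe sets are not to be compared.

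With diet, 5 genes of clade A and 1 of clade B passed the test. In limma 3 of the 25 serpins rose on the high-fat diet, where 6.26% of all 12493 genes did, and 3 fell, where 5.04% did, together 6 against a background of 11.3%. Serpina7, Serpinb6a and Serpina3n rose, and Serpina4-ps1, Serpina12 and Serpina11 fell. An unadjusted p under 0.05 for diet was found for 12 of the 25 members and for 23.8% of all genes. The median log2 diet ratio of the 25 members was -0.08 in wild type and -0.10 on the arrays labelled LASS2-/-, against 0.02 and -0.01 over all genes. These shares and medians over all genes are also the background for the diet counts of each gene list below.

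**Figure D2:**
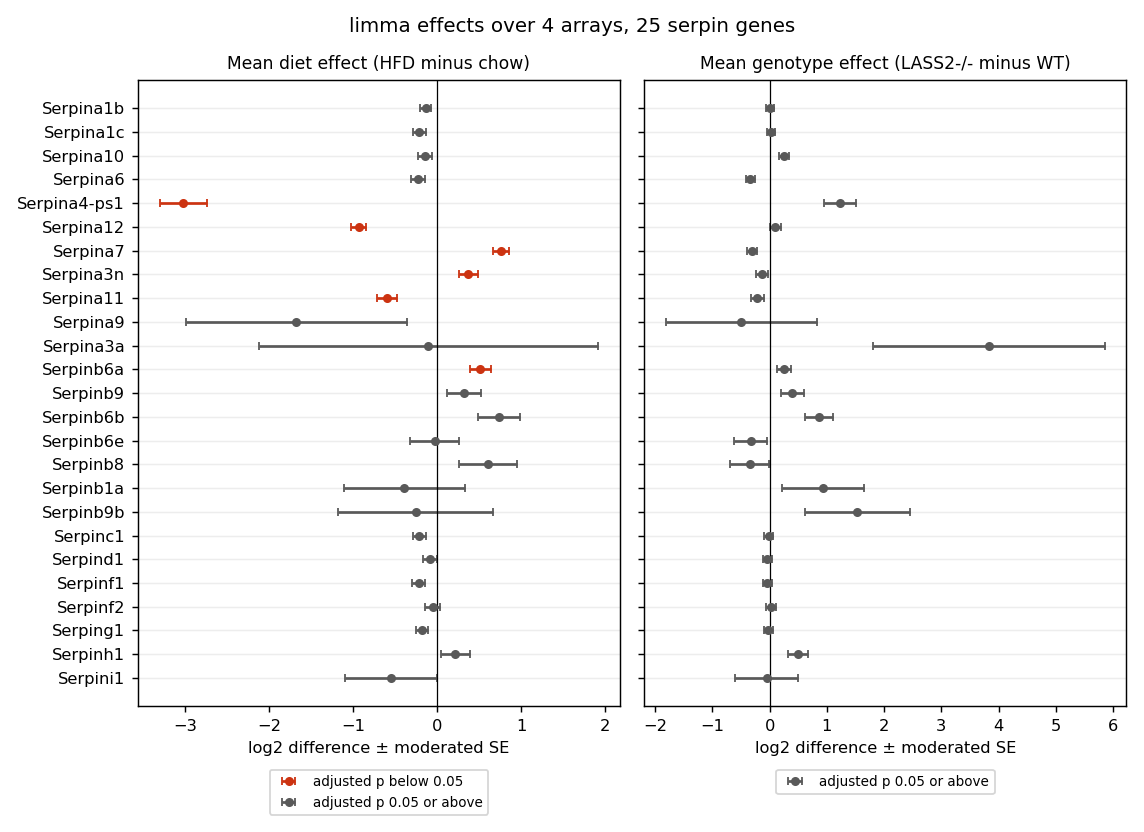
Mean diet effects (left) and mean genotype effects (right) from limma are drawn for 25 serpin genes as log2 differences with moderated standard errors, red where the adjusted p was below 0.05. In the diet panel 6 genes are red, from -3.03 for Serpina4-ps1 to 0.76 for Serpina7, and none is red in the genotype panel.

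Serpina4-ps1, a transcribed pseudogene related to the kallikrein inhibitor kallistatin, spanned the widest range of the members that lay above the floor on all arrays. Its log2 signal was 14.30 on wild-type chow, 14.55 on LASS2-/- chow, 10.29 on wild-type high-fat and 12.51 on LASS2-/- high-fat. Both chow arrays were high, the wild-type high-fat array was lowest, and the array labelled LASS2-/- high-fat lay between. The signal was thus 16.1-fold lower on high-fat diet than on chow in wild type and 4.11-fold lower on the arrays labelled LASS2-/-. In wild type 2 members, Serpina4-ps1 and Serpina12, were at least 2-fold lower, against 1.24% of all genes, and 0 were higher, against 2.13% (3.37% in either direction). On the arrays labelled LASS2-/- 1 member, Serpina4-ps1, was lower, against 1.89%. In limma Serpina4-ps1 fell by 3.03 ± 0.28 log2 with diet (adjusted p = 7.16e-06). With robust moderation, which lets genes with discordant arrays keep a larger error, its adjusted p in limma was 0.404.

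Its other 2 probe sets gave the same order of arrays. Serpina4-ps1 read 13.71, 13.79, 9.15 and 11.41 with the second probe set on wild-type chow, LASS2-/- chow, wild-type high-fat and LASS2-/- high-fat, and 14.25, 14.51, 9.83 and 12.50 with the other. All 3 were above the floor on every array, with log2 diet ratios from -4.56 to -4.01 in wild type and from -2.38 to -2.01 on the arrays labelled LASS2-/-. The genotype label therefore went with little difference on chow, at 0.25 log2, and with a 4.66-fold higher signal on high-fat diet. The difference between these genotype ratios was 1.97 log2, and no array is left to test it. In the additive model it gave Serpina4-ps1 a residual standard deviation of 0.99 log2. The moderated standard error of 0.28 is smaller because it is borrowed mostly from other genes. The mean genotype effect of 1.23 ± 0.28 log2 did not pass (adjusted p = 0.0598 in limma).

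Growth hormone acts on liver through the transcription factor STAT5, and its direct targets Socs2 and Cish encode feedback inhibitors of cytokine signalling. Both were read as part of a list of growth hormone and sex-biased liver genes, of which 3 of 19 measured members rose with diet and 10 fell. Socs2 had log2 signals of 12.90 on wild-type chow, 12.93 on LASS2-/- chow, 9.01 on wild-type high-fat and 11.28 on LASS2-/- high-fat. Cish read 10.82, 10.83, 8.31 and 9.67 on the same arrays. In both genes, as in Serpina4-ps1, the chow arrays were close together, the wild-type high-fat array was lowest and the array labelled LASS2-/- high-fat lay between. Hsd3b5, a male-biased steroid enzyme, was lower on both high-fat arrays as well. It read 13.24 and 12.61 on chow against 7.37 in wild type and 8.23 with the LASS2-/- label. Cyp2b9, of the same list, went the other way, with 7.97, 7.72, 11.82 and 10.63 on wild-type chow, LASS2-/- chow, wild-type high-fat and LASS2-/- high-fat. The order of arrays seen in Serpina4-ps1 was also found outside this list. Socs3 of the acute-phase list read 10.92, 10.88, 8.63 and 9.37, and C8b of the complement list 12.45, 12.49, 10.72 and 11.09. A link of Serpina4-ps1 to growth hormone was not tested.

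Serpina12 encodes vaspin, an adipokine-like serpin that inhibits tissue kallikrein 7. It read 13.35 on wild-type chow, 13.36 on LASS2-/- chow, 12.33 on wild-type high-fat and 12.52 on LASS2-/- high-fat. The high-fat arrays were both below the chow arrays, by 2.04-fold in wild type and 1.79-fold on the arrays labelled LASS2-/-. In limma Serpina12 fell by 0.94 ± 0.09 log2 (adjusted p = 9.69e-06). A second, dimmer probe set of Serpina12 had log2 diet ratios of -1.95 in wild type and 0.30 on the arrays labelled LASS2-/-, and was under the floor on the wild-type high-fat array.

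Serpina11, a secreted serpin of little-studied function, had log2 signals of 11.25 on wild-type chow, 10.90 on LASS2-/- chow, 10.51 on wild-type high-fat and 10.44 on LASS2-/- high-fat. Both high-fat arrays lay below both chow arrays, and Serpina11 fell by 0.60 ± 0.12 log2 in limma (adjusted p = 0.00456).

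**Figure D3:**
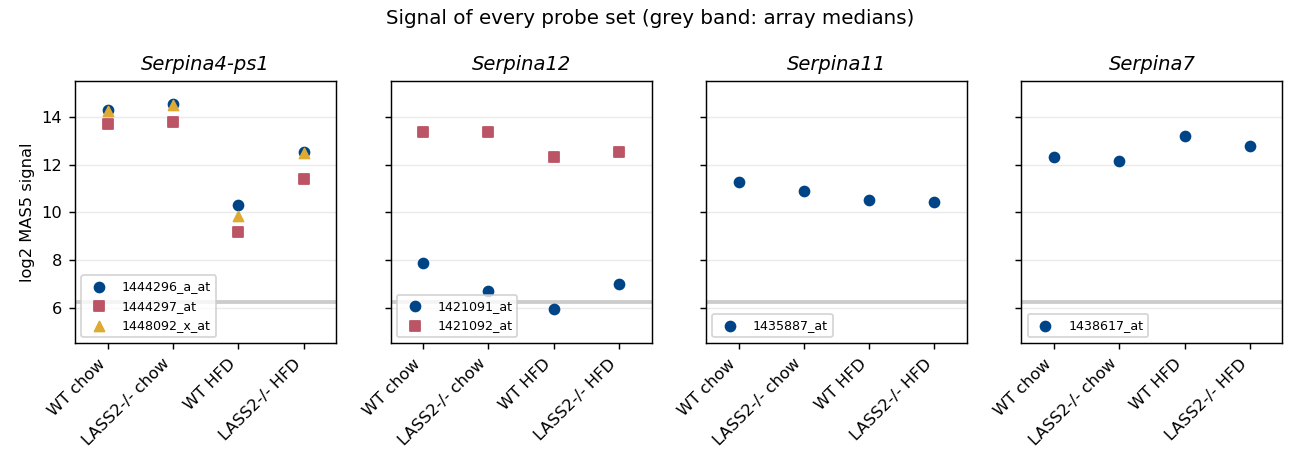
The log2 MAS5 signal of every probe set of Serpina4-ps1, Serpina12, Serpina11 and Serpina7 is plotted for the 4 arrays, with a marker per probe set and the array medians as a grey band. The 3 probe sets of Serpina4-ps1 share 1 order of arrays, whereas the dimmer probe set of Serpina12 lies near the grey band.

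The 3 genes that fell stand close together on chromosome 12. In the GRCm38.p6 gene order Serpina11 is followed directly by Serpina9, then directly by Serpina12, and then, after 1 other gene, by Serpina4-ps1. Serpina9, a germinal-centre B cell serpin, was above the floor on 1 array only, with 5.03, 6.79, 5.60 and 2.86 on wild-type chow, LASS2-/- chow, wild-type high-fat and LASS2-/- high-fat. On the side of the Serpina1 genes, Serpina1c, Serpina1b, Serpina6 and Serpina10 had mean diet effects between -0.23 and -0.14 log2, and none passed. On the other side Serpina5, the protein C inhibitor, stayed under the floor, and Serpina3n at the far end rose. In all, 10 of the 25 members that entered lie on chromosome 12.

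**Figure D4:**
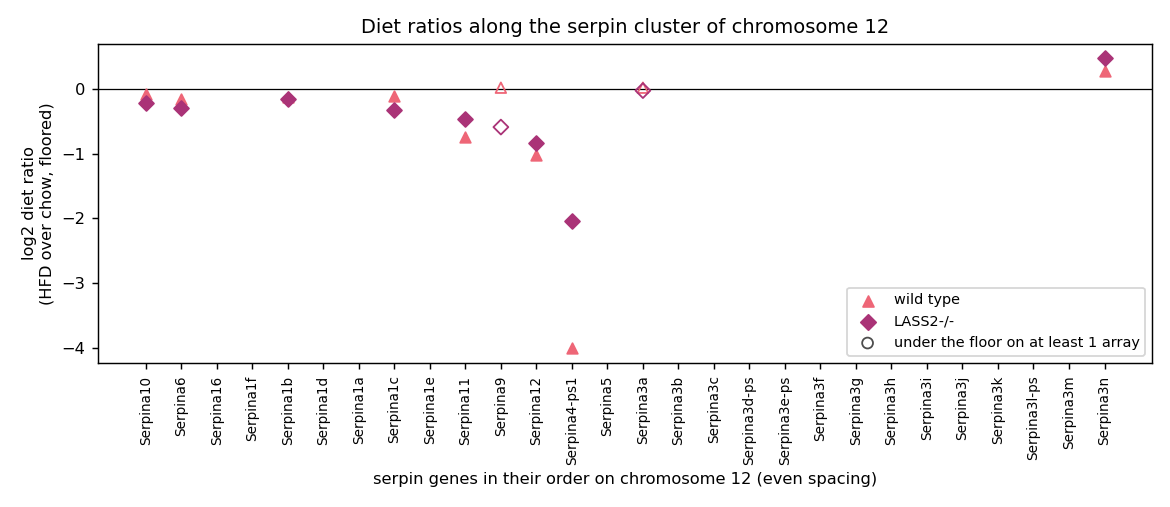
Log2 diet ratios, high-fat over chow and floored at the array median, are drawn for serpin genes in their order on chromosome 12, with triangles for wild type and diamonds for LASS2-/-; open symbols mark genes under the floor on at least 1 array. The wild-type ratio is lowest at Serpina4-ps1, at -4.01, followed by Serpina12 and Serpina11, and both ratios lie above 0 at Serpina3n.

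Promoters of genes that moved with diet were read from RefSeq windows on GRCm38.p6, which held 34 of the 40 members. Serpina4-ps1 has no window there, so its promoter was not read. Printed are the 250 bases before the most upstream start listed for Serpina11 and Serpina12, which fell, and for Serpina7, which rose and is described next. Capitals mark matches on either strand to TTCNNNGAA (a core that STAT factors bind), TTGCNNAA (a core of C/EBP sites) and GTTAAT (an HNF1 half-site, added with the values already known).
Serpina11, chr12:103989958-103990207, minus strand: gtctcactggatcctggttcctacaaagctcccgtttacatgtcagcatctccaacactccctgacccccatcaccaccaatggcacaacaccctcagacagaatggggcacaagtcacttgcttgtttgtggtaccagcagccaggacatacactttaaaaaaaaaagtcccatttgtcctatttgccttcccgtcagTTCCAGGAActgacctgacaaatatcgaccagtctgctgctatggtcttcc
Serpina12, chr12:104044444-104044693, minus strand: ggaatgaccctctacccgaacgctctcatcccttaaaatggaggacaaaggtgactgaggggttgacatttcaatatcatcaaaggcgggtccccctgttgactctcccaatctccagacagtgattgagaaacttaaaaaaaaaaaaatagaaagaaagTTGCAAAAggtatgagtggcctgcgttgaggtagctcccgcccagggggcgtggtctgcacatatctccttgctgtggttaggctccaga
Serpina7, chrX:139085237-139085486, minus strand: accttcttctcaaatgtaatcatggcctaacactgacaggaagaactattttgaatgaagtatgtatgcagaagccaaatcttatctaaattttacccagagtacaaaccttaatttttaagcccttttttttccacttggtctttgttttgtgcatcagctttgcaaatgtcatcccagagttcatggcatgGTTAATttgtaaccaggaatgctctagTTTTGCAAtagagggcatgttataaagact
Serpina11 held a STAT core that begins 51 bases before the start, Serpina12 a C/EBP core 90 bases before it, and Serpina7 an HNF1 half-site 57 bases and a C/EBP core 30 bases before it. None of these matches overlap. The window of Serpina3n, which also passed for diet, held no match to any of these letters. Among the 19 members that entered and have a window, 2 held the STAT core (Serpina11 and Serpinb6a), against 8.13% of all genes with a window. The C/EBP core was in 3 of the 19 (Serpina12, Serpina1b and Serpina7), against 10.8%, and the HNF1 half-site in 4 of the 19 (Serpina1b, Serpina1c, Serpina7 and Serpinb8), against 7.49%. A match describes letters in the window and was not tested as a binding site.

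Serpina7 encodes thyroxine-binding globulin, a carrier of thyroid hormone, and is X-linked. Its log2 signal was 12.33 on wild-type chow, 12.13 on LASS2-/- chow, 13.20 on wild-type high-fat and 12.78 on LASS2-/- high-fat. Both high-fat arrays lay above both chow arrays, by 1.82-fold in wild type and 1.57-fold on the arrays labelled LASS2-/-. Serpina7 rose by 0.76 ± 0.09 log2 in limma (adjusted p = 9.74e-05). Serpina6, the corticosteroid-binding globulin, read 13.41, 13.15, 13.25 and 12.85 on wild-type chow, LASS2-/- chow, wild-type high-fat and LASS2-/- high-fat. Each array labelled LASS2-/- was below the wild-type array of its diet, and the mean genotype effect of -0.33 ± 0.09 log2 did not pass (adjusted p = 0.107 in limma).

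Among 17 measured genes of hormone carriage, glucocorticoid and thyroid response, 2 rose and 3 fell with diet, where 6.26% and 5.04% of all genes did. Dio1, the deiodinase that activates thyroxine and is a thyroid hormone target, rose by 1.27 ± 0.09 log2 (adjusted p = 7.77e-07 in limma), with 11.65 and 11.90 on the chow arrays and 12.92 and 13.18 on the high-fat arrays. Tsc22d3, a glucocorticoid-induced leucine zipper gene, rose by 0.69 ± 0.09 log2 with diet. It fell by 0.47 log2 with the LASS2-/- label (adjusted p = 0.0338 in limma). Igfbp2 and Igfbp1, insulin-like growth factor binding proteins, fell by 1.03 and 1.14 log2 with diet.

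Serpina3n, an antichymotrypsin-like inhibitor induced in the acute phase, read 11.06 on wild-type chow, 10.83 on LASS2-/- chow, 11.33 on wild-type high-fat and 11.30 on LASS2-/- high-fat. The high-fat arrays were both higher than the chow arrays by less than 1.5-fold. Serpina3n rose by 0.37 ± 0.11 log2 (adjusted p = 0.0461 in limma), and this call was lost with quantile normalization (0.0671), equal medians (0.1), the mean of all probe sets (0.0601) and no filter on signal (0.057). In the acute-phase list 12 of 26 measured genes rose with diet and 3 fell. Saa2, a serum amyloid A, read 10.08, 10.77, 11.67 and 13.20 on wild-type chow, LASS2-/- chow, wild-type high-fat and LASS2-/- high-fat, and Orm2, an orosomucoid, read 9.19, 9.52, 10.52 and 11.79. In Serpina3n the high-fat arrays differed by 0.03 log2, whereas Saa2 and Orm2 were 1.53 and 1.27 log2 higher on the array labelled LASS2-/- high-fat than on the wild-type one.

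Antitrypsin signals differed little. Serpina1b, an antitrypsin and inhibitor of neutrophil elastase, read 15.60 on wild-type chow, 15.62 on LASS2-/- chow, 15.48 on wild-type high-fat and 15.46 on LASS2-/- high-fat. Serpina1c, another antitrypsin copy, read 15.38, 15.52, 15.28 and 15.19. In both the high-fat arrays were lower than the chow arrays, and neither passed for diet (adjusted p = 0.243 and 0.0885 in limma). With quantile normalization the effect of Serpina1b was 0.00, from log2 diet ratios of -0.05 in wild type and 0.05 on the arrays labelled LASS2-/-. That scaling replaces each value by the mean at its rank, so the 0.00 does not show that the diet difference was absent. The probe set shared by Serpina1a and Serpina1d had log2 diet ratios of -0.25 in wild type and -0.19 on the arrays labelled LASS2-/-. The probe set shared by Serpina1b, Serpina1c and Serpina1e had -0.43 and -0.18. Near-identical copies can share signal on such probe sets, so the copies cannot be told apart.

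Serpina10, the protein Z-dependent inhibitor of factor Xa, read 13.23 on wild-type chow, 13.54 on LASS2-/- chow, 13.15 on wild-type high-fat and 13.33 on LASS2-/- high-fat. Each array labelled LASS2-/- was the higher of its diet, and the mean genotype effect of 0.25 ± 0.08 log2 did not pass (adjusted p = 0.275 in limma).

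Inhibitors of clotting, fibrinolysis and complement in clades C, D, F and G had mean diet effects between -0.22 and -0.06 log2, and none passed. Serpinc1, antithrombin, read 15.12 on wild-type chow, 15.17 on LASS2-/- chow, 14.97 on wild-type high-fat and 14.89 on LASS2-/- high-fat. Serping1, the C1 inhibitor of complement and the contact system, read 14.71, 14.65, 14.49 and 14.50. In both genes the high-fat arrays lay below the chow arrays, with diet effects of -0.21 ± 0.07 and -0.18 ± 0.07 log2 (adjusted p = 0.0803 and 0.144 in limma).

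Serpinf1, pigment epithelium-derived factor, an antiangiogenic serpin that does not inhibit proteases, read 14.29, 14.19, 14.01 and 14.03 on wild-type chow, LASS2-/- chow, wild-type high-fat and LASS2-/- high-fat. Its second probe set had log2 diet ratios of -0.26 and -0.36, the same direction as the -0.28 and -0.17 of the first. Serpind1, heparin cofactor II, read 13.32, 13.30, 13.25 and 13.20, and Serpinf2, the plasmin inhibitor, ranged from 12.76 to 12.85. Mean genotype effects of these clades lay between -0.04 and 0.02 log2, none passed, and the sign depended on the scaling for Serping1 (-0.02 as deposited, 0.01 with quantile normalization) and Serpinf2 (0.02 as deposited, -0.03 with equal medians).

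The substrates and partners of these inhibitors were read beside them. Of 28 measured coagulation and fibrinolysis genes 0 rose and 5 fell with diet, with a median log2 diet ratio of -0.13 in wild type and -0.10 on the arrays labelled LASS2-/-. Fgb and Fgg, fibrinogen chains, fell by 0.37 ± 0.07 and 0.33 ± 0.07 log2, and F10, the factor X that Serpina10 and antithrombin act on, fell by 0.29 ± 0.08 log2 (adjusted p = 0.0334 in limma). Proz, the cofactor of Serpina10, fell by 0.31 ± 0.09 log2. Of 16 complement genes 0 rose and 6 fell, with medians of -0.20 and -0.16. C8b, a chain of the membrane attack complex, was 1.73 log2 lower on high-fat diet in wild type and 1.40 log2 lower on the arrays labelled LASS2-/-. C1ra, a protease that the C1 inhibitor blocks, fell by 0.42 ± 0.09 log2 (adjusted p = 0.00929 in limma). For genotype, 0 genes of either list passed limma, where 0.56% of all genes rose and 0.352% fell.

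Other protease inhibitors that are no serpins moved in both directions, with 3 of 21 rising and 3 falling with diet. Slpi, which like antitrypsin inhibits neutrophil elastase, read 6.51 on wild-type chow, 7.84 on LASS2-/- chow, 8.14 on wild-type high-fat and 8.79 on LASS2-/- high-fat and rose by 1.29 ± 0.25 log2. Fetub, fetuin B, fell by 0.56 ± 0.10 log2. The hepatocyte markers had median diet ratios of -0.05 and -0.24, and 2 of 9, Cps1 and Hnf4a, fell. In whole liver, fewer cells of a type and less RNA per cell cannot be told apart.

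Among the intracellular clade B serpins 7 of 18 entered, and Serpinb6a rose with diet. Serpinb6a, which inhibits cathepsin G and related proteases, read 9.85 on wild-type chow, 10.08 on LASS2-/- chow, 10.34 on wild-type high-fat and 10.60 on LASS2-/- high-fat. Both high-fat arrays were above both chow arrays, with a nearly equal diet ratio in wild type (0.50 log2) and on the arrays labelled LASS2-/- (0.52 log2). The rise of 0.51 ± 0.12 log2 passed limma (adjusted p = 0.0165).

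Serpinb6b, a paralog of Serpinb6a, read 7.53 on wild-type chow, 7.92 on LASS2-/- chow, 7.79 on wild-type high-fat and 9.12 on LASS2-/- high-fat. The array labelled LASS2-/- high-fat stood above the other 3, by 2.50-fold over wild type on the same diet and by 2.30-fold over LASS2-/- chow. On high-fat diet 3 of the 25 members were at least 2-fold higher with the LASS2-/- label, where 1.47% of all genes were (1.96% in either direction). These were Serpina4-ps1, Serpinb1a and Serpinb6b. On the arrays labelled LASS2-/-, 2 of the 25, Serpinb1a and Serpinb6b, were at least 2-fold above chow, against 3.11% of all genes (5.0% in either direction). Serpinb6b did not pass limma for genotype (0.86 ± 0.25 log2, adjusted p = 0.161) or for diet (0.73 ± 0.25 log2, adjusted p = 0.0752).

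Serpinb9, an inhibitor of granzyme B, read 8.38, 8.43, 8.36 and 9.09 on wild-type chow, LASS2-/- chow, wild-type high-fat and LASS2-/- high-fat. As in Serpinb6b, the array labelled LASS2-/- high-fat was the highest, and its second probe set had the same highest array, with 6.68, 7.02, 6.61 and 7.61. Neither effect passed limma (adjusted p = 0.553 for genotype and 0.382 for diet). Serpinb8, a furin inhibitor, ranged from 6.69 to 7.65 with the wild-type high-fat array highest, but its second probe set was highest on the array labelled LASS2-/- high-fat, at 7.45. Serpinb6e went the other way. It ranged from 7.14 on LASS2-/- high-fat, its lowest array, to 7.52 on wild-type high-fat. Its log2 genotype ratios were -0.29 on chow and -0.38 on high-fat diet.

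Macrophage markers were read beside these genes, since clade B serpins are abundant in leukocytes. The 14 macrophage markers measured of 15 listed were above the floor on all arrays, and their summed linear signal was 27930 on wild-type chow, 34436 on LASS2-/- chow, 27538 on wild-type high-fat and 41163 on LASS2-/- high-fat. The highest sum thus fell on the array where Serpinb6b and Serpinb9 were highest and Serpinb6e was lowest. With the LASS2-/- label 3 of the 14 rose (Marco, Lyz2 and Mpeg1) and Cd163 fell, where 0.56% and 0.352% of all genes did. Interferon response genes summed to 31298, 40332, 31241 and 48526 on the same arrays, with 6 of 22 rising with the LASS2-/- label, against 0.56% of all genes. Markers of T, NK and mast cells were dim, with 6 of 13 measured and sums from 445 on LASS2-/- high-fat to 772 on LASS2-/- chow. Of 13 listed granule genes 6 were measured, 1 was above the floor on every array, and none passed limma for genotype or diet. Most of the 13 encode serine proteases, but Prf1, perforin, and Cpa3, a metallocarboxypeptidase, do not. No entered gene of these lists was at 0. The part of cell number in the Serpinb6b and Serpinb9 signals was not tested.

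Serpinb1a, an inhibitor of neutrophil elastase, read 7.08 on wild-type chow, 6.07 on LASS2-/- chow, 4.74 on wild-type high-fat and 7.63 on LASS2-/- high-fat, with the middle arrays of this order under the floor. On high-fat diet it was at least 2.70-fold higher on the array labelled LASS2-/- than on the wild-type one. Its second probe set was under the floor on all 4 arrays. Neutrophil markers, of which 5 of 11 were measured, summed to 589, 679, 736 and 923 on wild-type chow, LASS2-/- chow, wild-type high-fat and LASS2-/- high-fat. Just 2 of these 5 markers were above the floor on every array. The median log2 genotype ratio of the 5 on high-fat diet was 0.00, and their median mean genotype effect was -0.49 log2. Serpinb9b was above the floor on the array labelled LASS2-/- high-fat only, at 6.61.

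**Figure D5:**
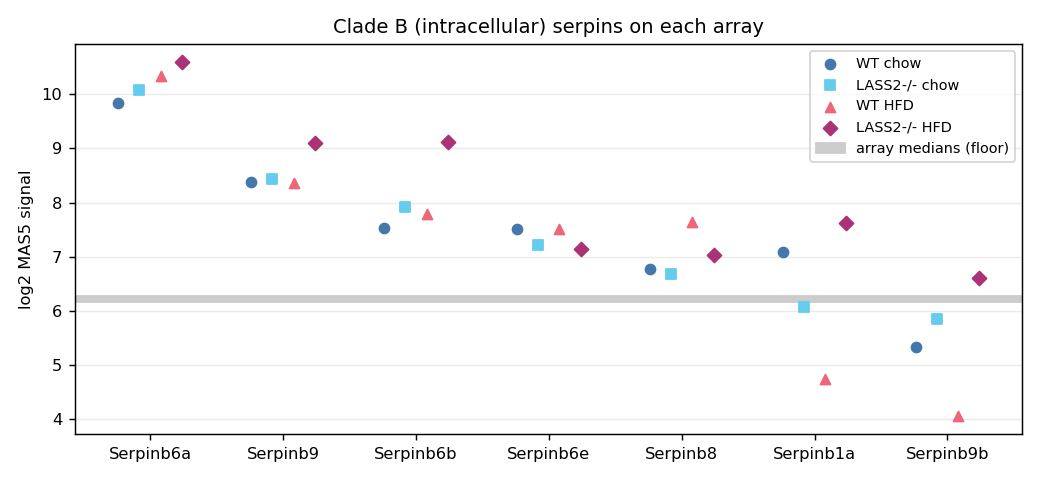
The log2 MAS5 signal of the 7 clade B serpins that entered is plotted with a marker for each of the 4 arrays, and the grey band spans the array medians. The array labelled LASS2-/- high-fat is highest in Serpinb6a, Serpinb9, Serpinb6b, Serpinb1a and Serpinb9b, and the last pair have arrays under the band. Serpinb9b entered through that array alone, so its highest array was set by the filter. In Serpinb6e the array labelled LASS2-/- high-fat is lowest, and in Serpinb8 the wild-type high-fat array is highest.

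Serpinh1, the collagen chaperone also called Hsp47, read 8.75 on wild-type chow, 9.52 on LASS2-/- chow, 9.24 on wild-type high-fat and 9.46 on LASS2-/- high-fat. The wild-type chow array was the lowest, and the other 3 were close together. The second probe set of Serpinh1 ranged from 8.37 to 9.10, also with its lowest value on wild-type chow. On high-fat diet the 2 probe sets differed in sign, with log2 genotype ratios of 0.22 in the first and -0.17 in the second. Neither the genotype effect of 0.49 ± 0.17 log2 nor the diet effect of 0.21 ± 0.17 log2 passed limma (adjusted p = 0.275 and 0.50).

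Of 22 measured collagen and stellate cell genes, 7 rose and 1 fell with diet, with median ratios of 0.48 in wild type and 0.51 on the arrays labelled LASS2-/-. Col3a1, a fibrillar collagen and client of this chaperone, read 9.92 and 10.44 on the chow arrays and 11.56 and 11.68 on the high-fat arrays, and rose by 1.44 ± 0.12 log2. Col1a2, a type I collagen chain, rose by 1.27 ± 0.15 log2. Each was higher on both high-fat arrays than on both chow arrays. Serpinh1 did not show this order, but its 9.52 on LASS2-/- chow was close to the 9.46 on LASS2-/- high-fat. Differences between single arrays were not tested.

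For genotype, 0 of the 25 serpins rose and 0 fell in limma, where 0.56% and 0.352% of all genes did (0.913% together), and 6 had an unadjusted p under 0.05, where 10.4% of all genes did. On chow 0 members were at least 2-fold higher and 0 lower with the LASS2-/- label, where 1.16% and 0.424% of all genes were (1.58% together). Median log2 genotype ratios of the members, 0.03 on chow and 0.02 on the high-fat diet, stood against 0.03 and 0.00 over all genes. With the arrays scaled to equal medians the chow medians moved to -0.07 for the members and -0.07 for all genes, a shift of the whole array.

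Of the 25 members, 20 were above the floor on all 4 arrays. The other 5 were Serpinb1a, Serpinb9b, Serpina9, Serpina3a and Serpini1, the neuronal inhibitor neuroserpin, which ranged from 5.81 to 6.55. The 15 members under the floor on every array read at most 5.99. They were Serpina1f, Serpina3i and Serpina5 of clade A, Serpini2 of clade I, and Serpinb1b, Serpinb2, Serpinb3a, Serpinb5, Serpinb6c, Serpinb7, Serpinb9c, Serpinb9d, Serpinb9g, Serpinb11 and Serpinb12 of clade B. Serpinb2 encodes plasminogen activator inhibitor 2 and Serpinb5 maspin, an epithelial serpin. For these genes a signal this low gives no order of the arrays.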

How the data were processed

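The series holds 4 Affymetrix 3' arrays of mouse liver, 1 per group. The deposited log2 signals were made by the authors with MAS5, per the submitters' processing notes. The sources used here give no version or scaling target. On the linear scale the mean without the outer 2% on each side was 496.0 to 496.2 on all arrays, so no further scaling was applied. How many arrays there are limits the precision.

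Of 45037 probe sets, 34945 had 1 symbol, 932 several and 9160 were not named here. Symbols were updated through gene numbers to GRCm38.p6. A gene entered with a probe set at or above the array median on at least 1 array, and its brightest such probe set was used. In 2-array ratios each array was floored at its median, and where the lower of the pair lay under the floor the value is a bound. Effects were fitted with limma 3.58.1 in R 4.3.3 with a trend in signal, on unfloored values of 12493 genes, and Benjamini-Hochberg adjusted p below 0.05 passed. The fit has 3 coefficients and 1 residual degree of freedom. The fit was tested on simulated data, where it missed some changed genes and called some unchanged ones. Tables were handled with pandas 2.3.3 and numpy 2.4.6 (Python 3.11.15), and figures drawn with matplotlib 3.10.9.

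The members and gene lists were chosen with earlier results of these data known. Named with their values are members that passed limma, were at least 2-fold apart in a ratio or were among the 10 brightest. Serpinb9 and Serpinh1 were also given array by array after their values were seen. Up to 4 genes were named per list and effect, by the smaller of their independent ratios. Reactive centre loops were planned and are not analysed here. Alternatives were another scaling, floor, fold threshold, probe set choice, filter and moderation.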

Additional observations from a re-analysis of the deposited data

Results flagged for a closer look

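Serpinb1a moved in opposite directions in the 2 diets and in the 2 genotypes, and this difference was not tested. With values floored, LASS2-/- over wild type gave a log2 ratio of -0.80 for Serpinb1a on chow and 1.44 on the high-fat diet. Its log2 diet ratio was -0.89 in wild type and 1.35 on the arrays labelled LASS2-/-. Each of the 4 ratios has an array under the floor and is a bound in size. No other member that entered had opposite ratios of at least 1.5-fold.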

How the results depend on the processing

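The diet calls of Serpina7, Serpina11, Serpina12 and Serpinb6a held under each alternative in limma except the fit without a trend in the moderation. Without that trend 0 serpins rose and 0 fell with diet, and of all 12493 genes 0 rose and 0 fell too. The loss of calls was thus not particular to serpins. Adjusted p in limma then lay between 0.322 for Serpina12 and 0.381 for Serpina3n. Serpina4-ps1 lost its diet call with robust moderation too. Without _x_at and _s_at probe sets it was the 1 serpin that rose with the LASS2-/- label (adjusted p = 0.0411 in limma), against 0.568% of 12139 genes. Its effect there, 1.23 log2, was the same as in the main fit. With the floor at the 25th percentile, 36 members entered. Then 3 were at least 2-fold higher and 2 lower with the LASS2-/- label on chow, against 6.84% and 3.75% of 16898 genes, and 5 and 2 on high-fat diet, against 4.68% and 4.65%. With diet 4 were lower in wild type, against 5.03%, and 3 on the arrays labelled LASS2-/-, against 7.81%. At a 1.5-fold threshold, 2 were higher and 1 lower with the label on chow, against 5.68% and 3.35% of all genes, while on high-fat diet 4 passed upward, against 5.73%, and 1 downward, against 3.32%. The diet ratio then passed for 2 higher and 4 lower serpins in wild type, against 7.71% and 5.11%. On the arrays labelled LASS2-/- it did so for 4 higher and 3 lower, against 10.1% and 7.2%. The cause of the changed calls was not tested, and a lower floor or threshold admits more genes by construction. None of the serpins' limma calls or 2-fold ratios changed sign under these alternatives. Among values that were not called, the chow genotype ratio of Serpina12 was 0.0085 as deposited, -0.01 with quantile normalization, -0.09 with equal medians and -0.60 with its probe sets averaged. For Serpinb1a the mean diet effect was -0.39, and 0.23 with values floored in limma. No paired analysis was possible because there is 1 array per group and the labels carry no replicate numbers. Signals near the floor limit Serpinb1a, Serpinb9b, Serpina9, Serpina3a and Serpini1.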

Other observations

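The probe set shared by Serpinb9e, Serpinb9f, Serpinb9g and Serpinb9h, granzyme inhibitor paralogs, read 5.03 on wild-type chow, 5.03 on LASS2-/- chow, 3.13 on wild-type high-fat and 7.64 on LASS2-/- high-fat. It was above the floor on the last array only, so its order of arrays is not set beside that of Serpinb9 and Serpinb6b. Serpina3a, a member of the Serpina3 copies, read 2.53 and 2.31 on the wild-type arrays and 6.25 on each array labelled LASS2-/-. Just 1 of its arrays reached the floor, and its mean genotype effect of 3.83 ± 2.02 log2 did not pass limma (adjusted p = 0.573). Pf4, a platelet chemokine gene, rose with diet by 1.52 ± 0.21 log2 (adjusted p = 0.000277 in limma), with 7.28 and 7.58 on the chow arrays and 8.61 and 9.28 on the high-fat arrays, and 3 of 7 platelet markers were measured.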
